A study of Homo sapiens with 4 samples.

Results

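This comparison set SETDB1 knockdown against ATF7IP knockdown in cells of the line labelled HepG2, a human liver cancer line. All 3 libraries came from cells infected with lentiviruses that express a short hairpin RNA, a knockdown that lowers a transcript without deleting the gene, and all cells had received sorafenib at 10 µM for 48 hours. Sorafenib is a multikinase inhibitor used against liver cancer. ATF7IP knockdown had 2 libraries, hairpin 1 and hairpin 2, each from a different hairpin against ATF7IP. SETDB1 knockdown had 1 library from 1 hairpin. The 13131 genes described were those of 28278 in the table with a mean of at least 1 CPM (counts per 1000000) over these 3 libraries, out of 4 samples in the series. GNAS-AS1, at a mean of 1.00 CPM, lay just inside this limit, and BHLHE40-AS1, at 0.999 CPM, just outside. The Control library entered only 1 alternative fit and no difference given here, so a difference between the knockdowns does not say which of them moved from Control. Differences are given as SETDB1 knockdown minus hairpin, against each hairpin in turn. A gene said to have risen or fallen was higher or lower in SETDB1 knockdown than in the hairpin libraries, which is not a change from Control.

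SETDB1 is a methyltransferase that places methyl groups on lysine 9 of histone H3 (H3K9), a mark of silent chromatin found on retroelements and on some genes. ATF7IP is its binding partner, which holds SETDB1 in the nucleus, protects it from degradation and supports its activity. TRIM28, recruited by zinc finger repressors, and the HUSH complex of TASOR, MPHOSPH8 and PPHLN1 bring SETDB1 to its targets. The comparison therefore sets loss of the enzyme beside loss of its cofactor in the same drug-treated cells.

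The genes that define hepatocytes went against the liver label. Of 41 hepatocyte genes in the table, 14 were at 0 counts in all 3 libraries, among them ALB, AFP, APOB, TTR, FGA and FGB, which allows up to 0.168 CPM. At or under this floor in each library were 27 of the 41, with the floor set at 12 counts, or 3 fragments at an assumed 4 counts each. The 5 that reached a mean of 1 CPM were FOXA1, CEBPA, ASGR1, CPS1 and ASS1. CPS1, the first enzyme of the urea cycle, was at 503, 443 and 219 CPM in hairpin 1, hairpin 2 and SETDB1 knockdown (edgeR adjusted p = 0.279). The cells are therefore called here the cells labelled HepG2. Of 14 stellate cell and fibroblast genes 9 reached that level, of 10 endothelial genes 0 did, and of 12 macrophage and leukocyte genes only CD68 did. Summed levels of the macrophage list were 25, 26.6 and 43.9 CPM in the same order, with CD163, CLEC4F, CD3D, CD3E and TYROBP at 0. Those of the fibroblast list were 290, 265 and 337 CPM, with LUM at 26.0, 26.0 and 93.0 CPM. Of its 9 measured genes 4 lay above both hairpins and 1, COL1A1, below both. COL3A1, at 190, 155 and 156 CPM, and ACTA2, at 12.95, 15.84 and 14.42 CPM, lay within the range of the hairpins.

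The 3 libraries held between 71225287 and 73791097 counts, with 18256 to 18572 genes above 0. Ribosomal RNA genes took 0.489% and 0.408% of counts in the hairpin libraries and 0.721% in SETDB1 knockdown. The median absolute difference of a gene was 0.31 log2 units from hairpin 1, 0.25 from hairpin 2 and 0.24 between the hairpins. The difference from hairpin 1 also ran with gene length, from a median of −0.23 in the shortest of 4 equal bands to 0.18 in the longest, while the medians from hairpin 2 lay between −0.02 and 0.01. The part of ribosomal RNA content in the results was not tested. List medians within these bands, an alternative chosen after the values were seen, are given for the interferon, heat shock, MHC class I, complement, metallothionein and protocadherin lists, and those of the other described lists kept their sign.

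The targeted genes separated the libraries as their labels say. ATF7IP (chromosome 12, 14365682 to 14502930 on GRCh38.p14, as all positions here) was at 18.2 CPM in hairpin 1, 18.9 CPM in hairpin 2 and 98.3 CPM in SETDB1 knockdown. The hairpin libraries were close to each other and far below the SETDB1 library. Its log2 fold change was 2.40 ± 0.24 (SE, 1 against 2 libraries), with an edgeR adjusted p of 0.0101 (quasi-likelihood test, Benjamini-Hochberg). A gene with an adjusted p below 0.05 and on the same side of each hairpin is termed called. SETDB1 (chromosome 1, 150926263 to 150964737) was at 52.0, 47.0 and 12.1 CPM in the same order. It fell in SETDB1 knockdown by 2.04 ± 0.29 on the log2 scale (SE), with an edgeR adjusted p of 0.0491 that became 0.0586 with copies summed and read-through loci left out.

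Each target was therefore lowest in the libraries of its own hairpins. Among the other members of the silencing machinery none was called. TRIM28 was at 391, 289 and 262 CPM, TASOR at 108, 147 and 131 CPM, and MPHOSPH8 at 23.8, 31.8 and 22.6 CPM. MORC2, an ATPase that works with HUSH, was at 99.6, 99.1 and 111 CPM. ATF7IP2, the paralog of ATF7IP, was at 5.07, 4.58 and 7.10 CPM, above both hairpins by 0.48 and 0.63 log2 units (edgeR adjusted p = 0.636). Of the 10 genes on this list 2 were called, and they were the 2 targets. Of 15 other H3K9 methyltransferases, demethylases and HP1 genes, 0 were called by edgeR, DESeq2 or limma-voom and 1 had an unadjusted edgeR p below 0.05. Across all genes edgeR called 0.175%, limma-voom called 0, and 10.0% had an unadjusted edgeR p below 0.05. The 0 calls among these 15 therefore do not show that they were unchanged.

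Few genes passed the test across the table. Of the 13131 genes, 23 (0.175%) passed the edgeR test at an adjusted p below 0.05 on the same side of each hairpin, 14 (0.107%) higher and 9 (0.0685%) lower in SETDB1 knockdown. At an unadjusted p below 0.05 there were 1315 genes, 10.0% of them. The test rests on the spread between the 2 hairpin libraries and assumes that the single SETDB1 library varies alike, and nothing in the labels says that libraries came from separate cultures. All 23 calls were lost under limma-voom and when genes with low counts stayed in the edgeR fit, while DESeq2 kept all 23 among 182.

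A rule of size without a test described more genes. SETDB1 knockdown was at least 2-fold above each hairpin at 206 genes (1.57%) and at least 2-fold below each at 150 genes (1.14%). For 337 of these 356 genes the gap to the nearer hairpin exceeded the gap between the hairpins. The rule had already required a gap of at least 2-fold to each hairpin, so this count is in part built in. At least 2-fold from a single hairpin were 781 genes for hairpin 1 and 728 for hairpin 2, and 335 genes were at least 2-fold apart between the 2 hairpins. Low genes filled much of the count, since 5.37% of genes at 1 to 5 CPM were 2-fold higher against 0.517% of genes at 50 CPM and over. In 37 of the 206 both hairpin libraries were under 1 CPM, and in 64 of the 150 the SETDB1 library was. SETDB1 knockdown lay above both hairpins at 4557 genes (34.7%) and below both at 4734 (36.1%).

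**Figure D1:**
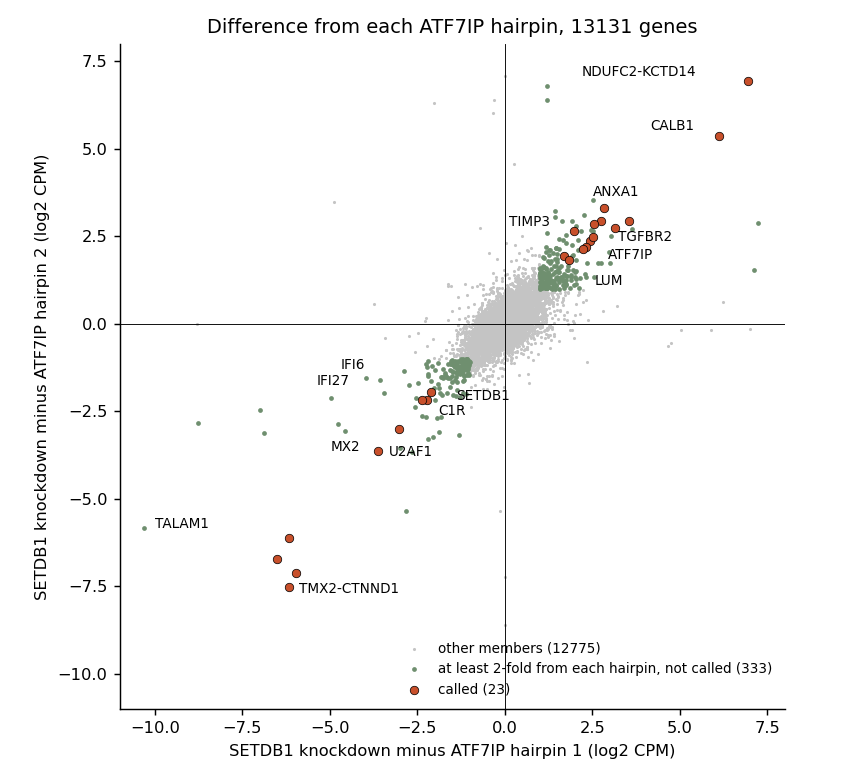
Each point is 1 of the 13131 genes, with its log2 CPM difference of SETDB1 knockdown from ATF7IP hairpin 1 on the x axis and from hairpin 2 on the y axis. Both axes share the SETDB1 library, so points near the diagonal are in part built in; the 23 called genes (red) lie at both ends, with ATF7IP and ANXA1 at the upper right and SETDB1 and C1R at the lower left.

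The 14 genes that rose included a phospholipid-binding protein, a TGF-beta receptor, a metalloproteinase inhibitor and a matrix proteoglycan. ANXA1 (chromosome 9, 73151865 to 73170393), a calcium-dependent phospholipid-binding protein that dampens inflammation, was at 45 CPM in hairpin 1, 32.2 CPM in hairpin 2 and 319 CPM in SETDB1 knockdown. The single SETDB1 value stood well clear of both hairpins. ANXA1 rose by 3.05 ± 0.27 on the log2 scale (edgeR adjusted p = 0.0101).

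TGFBR2 (chromosome 3, 30606356 to 30694142), the type II receptor that binds TGF-beta, was at 12.7, 13.0 and 72.5 CPM. The hairpins were nearly equal, and TGFBR2 rose by 2.50 ± 0.25 (edgeR adjusted p = 0.0101). TIMP3 (chromosome 22, 32801705 to 32863041), an inhibitor of metalloproteinases that is bound in the matrix, was at 44.4, 27.9 and 176 CPM and rose by 2.28 ± 0.30 (edgeR adjusted p = 0.0367). It lies within SYN3, and reads of the overlapping genes may not be told apart. LUM (chromosome 12, 91102629 to 91111494), which encodes the collagen-binding proteoglycan lumican, was at 26.0, 26.0 and 93.0 CPM. LUM rose by 1.84 ± 0.24 (edgeR adjusted p = 0.0367). Its neighbour DCN, the related proteoglycan decorin, was at 4.67, 5.33 and 12.3 CPM and was not called (edgeR adjusted p = 0.249). LUM and DCN are on the fibroblast list above, whose part in this result was not tested, and in bulk RNA more cells of a kind and more RNA per cell cannot be told apart.

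MME (chromosome 3, 155024202 to 155183729), the membrane peptidase neprilysin, was at 0.397, 0.615 and 4.91 CPM and rose by 3.27 ± 0.45 (edgeR adjusted p = 0.0449). CALB1 (chromosome 8, 90058608 to 90082879), which encodes the calcium buffer calbindin, had 8, 16 and 694 counts. Both hairpin libraries were at or near the floor of 3 fragments. Taking about 4 counts as 1 fragment, SETDB1 knockdown had 174 fragments against 6 in the hairpins. The ratio was 60.3, with an exact interval of 27.1 to 166 for counting error only (edgeR adjusted p = 0.0101). MME and CALB1 were under 1 CPM in both hairpin libraries and reached a mean of 1 CPM only through SETDB1 knockdown. That they lay higher is therefore in part built in. CDCA4 (chromosome 14, 105009573 to 105021083), a transcriptional regulator linked to the cell cycle, was at 27.6, 23.1 and 88.6 CPM and rose by 1.80 ± 0.25 (edgeR adjusted p = 0.0465, or 0.0574 with copies summed and read-through loci left out).

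Noncoding RNAs were also among the genes that rose. LINC02582 was at 4.19, 3.67 and 28.1 CPM (log2 fold change 2.84 ± 0.29, edgeR adjusted p = 0.0101). PINCR, a long noncoding RNA known as p53-induced, was at 1.11, 1.49 and 10.1 CPM (log2 fold change 2.95 ± 0.36, edgeR adjusted p = 0.0338). RN7SL2, part of the particle that targets proteins for secretion, had 6.03, 6.44 and 28.4 CPM (edgeR adjusted p = 0.0338), and it belongs with the structural RNAs described last.

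Of the complement genes 3 were at least 2-fold lower in SETDB1 knockdown, and 1 of them was called. C1R (chromosome 12, 7080219 to 7092445), a serine protease of the complement C1 complex, was at 71.9, 70.2 and 15.4 CPM. The hairpins were nearly equal, and C1R fell by 2.21 ± 0.28 (SE; edgeR adjusted p = 0.0338). C1S, the other protease of that complex and the neighbour of C1R, was at 29.2, 33.4 and 7.32 CPM and just missed the threshold (edgeR adjusted p = 0.051). C3, the central complement component, was at 158, 231 and 56.3 CPM (edgeR adjusted p = 0.137). Of 8 complement and acute phase genes measured, 3 were at least 2-fold lower and 1 was called. The list's median difference was −0.69 from hairpin 1 and −0.85 from hairpin 2, against −0.003 and −0.009 over all genes, and −0.56 and −0.84 within bands of gene length.

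Some called genes have near-identical copies, between which fragments may have been shared. U2AF1 (chromosome 21, 43092956 to 43107578), a splicing factor subunit, had 35.8, 35.8 and 2.88 CPM and fell by 3.63 ± 0.32 (edgeR adjusted p = 0.0101). Its near-identical copy U2AF1L5 was at 96.0, 86.9 and 111 CPM, and the sum of both copies was 132, 123 and 114 CPM. The summed copies differed by −0.16 ± 0.25 log2 units (edgeR adjusted p = 0.909). CCDC74B had 6.84, 6.74 and 0.820 CPM (edgeR adjusted p = 0.0437). Its copy CCDC74A was at 1.39, 1.66 and 0.382 CPM, also lowest in SETDB1 knockdown. LOC102723360, a long noncoding RNA, was at 31.2, 27.4 and 6.06 CPM (edgeR adjusted p = 0.0402).

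Another 7 of the 23 calls were read-through loci, whose transcripts span adjacent genes in the annotation. TMX2-CTNND1, RPL36A-HNRNPH2, SUGT1P4-STRA6LP-CCDC180 and ARPC4-TTLL3 had 0 counts in SETDB1 knockdown, at least 11.6-fold, 10.1-fold, 14.5-fold and 11.0-fold lower against the floor of 3 fragments. NDUFC2-KCTD14 had 0 counts in both hairpin libraries and 238 in SETDB1 knockdown, at least 19.8-fold higher. It reached a mean of 1 CPM only through SETDB1 knockdown, and the loci at 0 counts there only through the hairpin libraries. Their sides are therefore in part built in. Of 13 single genes in these loci 0 passed the test, with the lowest edgeR adjusted p at 0.3. TMX2 was at 152, 137 and 124 CPM and CTNND1 at 103, 126 and 134 CPM (edgeR adjusted p = 0.851 for each). ISY1-RAB43 had 3.20, 3.47 and 16.0 CPM (edgeR adjusted p = 0.0437). SENP3-EIF4A1 had 6.91, 5.56 and 40.5 CPM (edgeR adjusted p = 0.0101) beside EIF4A1, a translation initiation helicase, at 1442, 983 and 1153 CPM. With copies summed and read-through loci left out, an alternative chosen after the values were seen, 13 genes were called, 10 higher and 3 lower. SETDB1 and CDCA4 lost their calls in that fit, in which CCDC74A and CCDC74B were not summed.

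Most interferon-stimulated genes lay below both hairpins. These genes encode antiviral effectors and are switched on when interferon or its sensors activate a complex that holds STAT2 and IRF9, which binds a short GAAA-rich element in their promoters. Of 42 measured, 34 (81.0%) lay below both hairpins and 1 (2.38%) above both, against 36.1% and 34.7% of all genes. The list's median difference was −0.92 from hairpin 1 and −0.42 from hairpin 2. At least 2-fold below each hairpin were 9 of them (21.4% against 1.14%). By edgeR 0 were called, 14 of the 42 had an unadjusted p below 0.05, against 10.0% of all genes, and DESeq2 called 6, all lower.

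The promoters of 3 of the genes at least 2-fold lower are shown because the element can be seen in them. Each window is 300 bases, from 250 before to 50 after the start that RefSeq gives (GRCh38.p14), and capitals mark matches to GAAANNGAA on either strand, a search chosen after the values were seen. IFI6 lies on the minus strand (chr1:27672143-27672442), with 3 matches that begin 156, 115 and 93 bases before the start. IFI44L lies on the plus strand (chr1:78620198-78620497) with 2 matches, and IFI27 on the plus strand (chr14:94110486-94110785) with 2.
IFI6: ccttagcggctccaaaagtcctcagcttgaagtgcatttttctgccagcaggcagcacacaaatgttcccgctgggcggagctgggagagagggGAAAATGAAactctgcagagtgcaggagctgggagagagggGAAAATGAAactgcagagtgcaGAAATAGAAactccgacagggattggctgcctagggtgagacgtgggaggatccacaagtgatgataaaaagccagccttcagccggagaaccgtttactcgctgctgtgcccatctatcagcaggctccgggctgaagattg
IFI44L: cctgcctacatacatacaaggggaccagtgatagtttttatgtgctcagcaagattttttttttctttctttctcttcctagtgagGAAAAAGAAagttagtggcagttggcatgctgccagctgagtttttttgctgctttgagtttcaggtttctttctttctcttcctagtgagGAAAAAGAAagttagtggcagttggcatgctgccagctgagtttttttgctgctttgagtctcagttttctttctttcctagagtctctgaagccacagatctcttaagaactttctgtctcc
IFI27: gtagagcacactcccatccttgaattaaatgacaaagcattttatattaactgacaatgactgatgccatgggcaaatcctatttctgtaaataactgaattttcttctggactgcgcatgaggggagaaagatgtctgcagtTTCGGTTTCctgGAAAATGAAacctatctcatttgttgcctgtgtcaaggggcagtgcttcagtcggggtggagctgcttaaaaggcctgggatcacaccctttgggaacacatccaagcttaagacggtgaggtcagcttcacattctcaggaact
The element was found in 23 of the 33 interferon-stimulated genes that have a promoter in the RefSeq table, against 8.29% of all 27305 promoters there and 6.39% of the promoters of measured genes. Among the genes at least 2-fold lower in SETDB1 knockdown it was in 7.77% of 103 promoters. A match describes the letters only.

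IFI6, an interferon-induced protein of mitochondria, was at 100.1 CPM in hairpin 1, 25.6 CPM in hairpin 2 and 8.44 CPM in SETDB1 knockdown. The hairpins were themselves far apart, and its log2 fold change of −2.90 ± 1.38 was not called (edgeR adjusted p = 0.694). IFI27 had the same order at 32.9, 4.49 and 1.02 CPM (edgeR adjusted p = 0.767). IFI44L was at 34.3, 17.2 and 5.10 CPM (edgeR adjusted p = 0.156). MX2, a GTPase that restricts viruses, was at 9.72, 3.38 and 0.382 CPM (edgeR adjusted p = 0.156). XAF1 was at 4.16, 1.09 and 0.127 CPM, with SETDB1 knockdown under the floor.

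IRF9 and IRF7, regulators in the pathway, had the same order of libraries. IRF9, the DNA-binding part of the interferon complex, was at 29.5, 18.1 and 6.40 CPM (log2 fold change −1.90 ± 0.37, edgeR adjusted p = 0.166). IRF7 was at 18.7, 6.52 and 2.53 CPM. STAT2 had this order too but with smaller gaps, at 29.8, 25.4 and 25.2 CPM. Between the ATF7IP hairpins the median difference of hairpin 2 from hairpin 1 over the list was −0.63. ISG15, a ubiquitin-like modifier, was at 633, 205 and 151 CPM, so most of its gap lay between the 2 ATF7IP hairpins. IFIT1 and IFIT2 lay within the range of the hairpins, at 137, 109 and 122 CPM and at 346, 336 and 338 CPM. Within bands of gene length the list's medians were −0.94 and −0.40.

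MHC class I genes, which present peptides to T cells and respond to interferon, lay further below hairpin 1 than below hairpin 2. Of 15 measured, 10 (66.7%) lay below both hairpins, against 36.1% of all genes. The list's median was −0.73 from hairpin 1 and −0.21 from hairpin 2. Within bands of gene length these medians were −0.51 and −0.21. TAP1, a subunit of the peptide transporter, was at 104, 94.7 and 68 CPM. HLA-B was at 392, 185 and 171 CPM, so that hairpin 2 and SETDB1 knockdown were close. By edgeR 0 of the list were called, 2 of the 15 had an unadjusted p below 0.05, against 10.0% of all genes, and DESeq2 called 0. The inducible chemokines CXCL10 and CXCL11, neighbours on chromosome 4, also lay below both hairpins. CXCL10 had 1.39, 2.83 and 0.198 CPM, and CXCL11 had 2.96, 2.63 and 1.02 CPM.

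**Figure D2:**
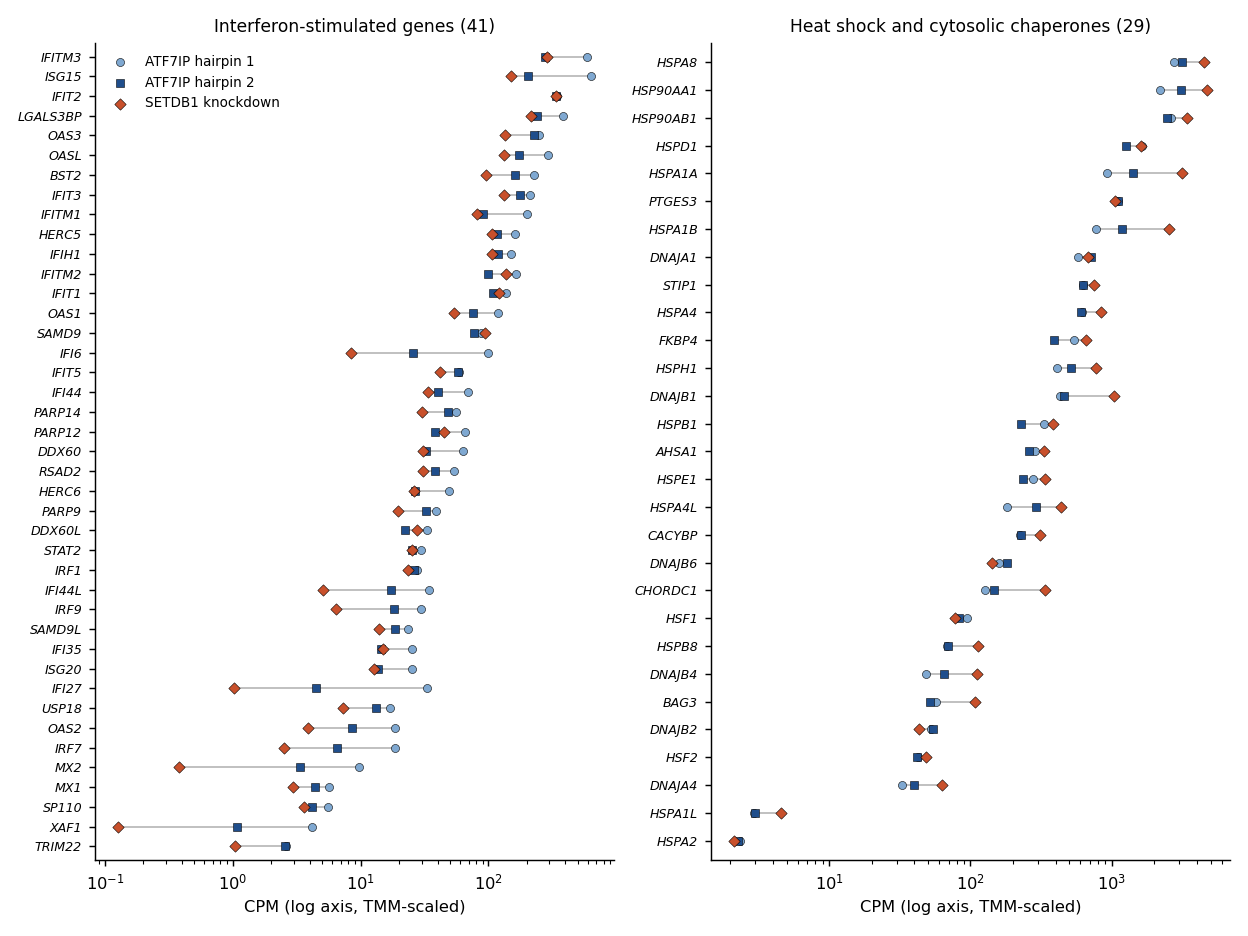
CPM (log axis) of 41 of the 42 interferon-stimulated genes (left) and the 29 heat shock and cytosolic chaperone genes (right) in hairpin 1 (circle), hairpin 2 (square) and SETDB1 knockdown (diamond), 1 library a point. On the left 33 diamonds lie below both hairpins, with wide gaps between the hairpins at IFI6 and IFI27; on the right 22 lie above both, with HSPA1A at 922, 1419 and 3115 CPM.

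Heat shock genes lay on the higher side. Their proteins fold other proteins and are induced through HSF1, which binds paired GAA blocks, the heat shock element. Of 29 heat shock and cytosolic chaperone genes measured, 22 (75.9%) lay above both hairpins and 5 (17.2%) below both. Over all genes these shares were 34.7% and 36.1%. The median difference was 0.46 from hairpin 1 and 0.52 from hairpin 2, and 0.56 and 0.53 within bands of gene length. By edgeR 0 were called, 11 of the 29 had an unadjusted p below 0.05, and DESeq2 called 5, all higher. Across all 13131 genes 10.0% had such an unadjusted p, and DESeq2 called 182. The list's summed level was 17170, 18920 and 28550 CPM.

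The promoters of CHORDC1 and HSPA1A are shown for the element, with capitals for matches to GAANNTTC or TTCNNGAA. CHORDC1 lies on the minus strand (chr11:90223000-90223299) and has 6 matches, which begin 205, 60, 55, 50, 45 and 23 bases before the start. HSPA1A lies on the plus strand (chr6:31815293-31815592) and has 1, beginning 106 bases before the start.
CHORDC1: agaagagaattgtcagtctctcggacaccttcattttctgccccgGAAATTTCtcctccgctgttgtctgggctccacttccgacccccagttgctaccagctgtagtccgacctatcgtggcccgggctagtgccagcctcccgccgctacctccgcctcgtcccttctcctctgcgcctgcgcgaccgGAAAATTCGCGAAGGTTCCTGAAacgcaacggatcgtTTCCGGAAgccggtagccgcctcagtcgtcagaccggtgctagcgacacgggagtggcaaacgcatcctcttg
HSPA1A: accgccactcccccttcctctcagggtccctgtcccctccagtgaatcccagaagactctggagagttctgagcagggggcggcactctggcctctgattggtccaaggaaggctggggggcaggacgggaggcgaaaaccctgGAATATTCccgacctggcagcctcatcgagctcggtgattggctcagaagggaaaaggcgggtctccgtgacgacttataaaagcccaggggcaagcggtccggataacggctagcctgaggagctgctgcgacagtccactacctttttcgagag
The element was in 9 of the 27 heat shock genes with a promoter in the table, against 13.7% of all promoters and 9.86% of those of measured genes. It was also in 9 of the 33 promoters of interferon-stimulated genes. The share was 15.9% in the 138 promoters of genes at least 2-fold higher and 13.6% in those at least 2-fold lower.

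CHORDC1, a cochaperone of HSP90, was at 127 CPM in hairpin 1, 146 CPM in hairpin 2 and 337 CPM in SETDB1 knockdown (log2 fold change 1.30 ± 0.25, edgeR adjusted p = 0.153). DNAJB1, the J-domain partner of HSP70, was at 431, 457 and 1028 CPM (edgeR adjusted p = 0.223). HSPA1A, the inducible HSP70, was at 922, 1419 and 3115 CPM (edgeR adjusted p = 0.25). At all of these SETDB1 knockdown was at least 2-fold above each hairpin. HSPA1B is a near-identical copy of HSPA1A, and the sum of both was 1697, 2591 and 5659 CPM. BAG3, a cochaperone of HSP70, was at 56.6, 51.7 and 108 CPM. The inducible HSP90 gene HSP90AA1 had 2195, 3100 and 4701 CPM.

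Other members of the list did not share this order. HSF1 itself was at 95.2, 82.9 and 77.4 CPM, PTGES3, a cochaperone of HSP90, at 1103, 1105 and 1057 CPM, and DNAJB2 at 52.8, 54.3 and 43.2 CPM.

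Antioxidant genes of the NRF2 pathway leaned the same way to a smaller degree. NRF2, encoded by NFE2L2, drives enzymes that make glutathione and reduce peroxides. Of 26 measured, 17 (65.4%) lay above both hairpins and 4 (15.4%) below both, against 34.7% and 36.1% of all genes. The medians of the list were 0.30 and 0.43. AKR1C3, which reduces ketones and aldehydes, was at 13.5, 17.7 and 37.3 CPM (edgeR adjusted p = 0.219). Its relative AKR1C1 was at 1.05, 1.87 and 4.71 CPM, and reads of these similar genes may be shared. TXNRD1, thioredoxin reductase, was at 692, 689 and 1246 CPM (edgeR adjusted p = 0.372). NQO1 and HMOX1, much used as readouts of NRF2, were not higher than both hairpins, at 223, 165 and 223 CPM and at 37, 28 and 31.6 CPM. By edgeR 0 of the list were called, 8 of the 26 had an unadjusted p below 0.05, against 10.0% of all genes, and DESeq2 called 1.

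Of 5 metallothionein list genes measured, 4 (80%) lay above both hairpins, against 34.7% of all genes, with MT2A at 117, 75.1 and 126 CPM. Among the 5, 0 were called or had an unadjusted p below 0.05. The list's median from hairpin 1 was 0.21, or 0.44 within bands of gene length, and from hairpin 2 it was 0.74 and 0.75. Of 21 endoplasmic reticulum chaperone and unfolded protein response genes, 15 (71.4%) lay above both and 0 below both. For all genes these shares were 34.7% and 36.1%. The medians of the list were 0.14 and 0.34. HSPA5, the main chaperone there, was at 1260, 1079 and 1982 CPM. By edgeR 0 of these 21 were called, 2 had an unadjusted p below 0.05, against 10.0% of all genes, and DESeq2 called 0.

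Genes around TGF-beta and BMP signalling split. TGFBR2 rose, as given above. The 3 ID genes measured, targets of BMP signalling that block differentiation factors, each lay below both hairpins. ID1 was at 213, 106 and 45.3 CPM and ID3 at 273, 148 and 64.6 CPM. ID2 was at 14.4, 9.77 and 7.70 CPM (edgeR adjusted p = 0.599), within 2-fold of each hairpin. SMAD6, an inhibitor of the BMP pathway induced by it, was at 39.9, 25 and 9.97 CPM. In ID1, ID3 and SMAD6 SETDB1 knockdown was at least 2-fold below each hairpin and hairpin 1 was above hairpin 2, and none was called (edgeR adjusted p = 0.247, 0.235 and 0.195). Of the 24 genes on the list 12 (50%) lay below both hairpins and 8 (33.3%) above both, against 36.1% and 34.7% of all genes. TGFBR1, the type I receptor, was at 107, 122 and 85.7 CPM.

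Cell-cell junction genes lay higher in SETDB1 knockdown. DSP, which encodes the desmosome protein desmoplakin, was at 144, 113 and 405 CPM (log2 fold change 1.66 ± 0.26, edgeR adjusted p = 0.0887). PKP2, its desmosome partner, was at 29.3, 26.9 and 56.7 CPM (edgeR adjusted p = 0.262). ELF3, an epithelial transcription factor, was at 18.1, 15.7 and 34.4 CPM (edgeR adjusted p = 0.277). Of 15 epithelial genes measured, 10 (66.7%) lay above both hairpins and 0 below both, against 34.7% and 36.1% of all genes. The medians of the list were 0.35 and 0.39. By edgeR 0 were called, 3 of the 15 had an unadjusted p below 0.05, against 10.0% of all genes, and DESeq2 called 2. The keratin KRT7 was highest in hairpin 1 instead, at 1870, 1012 and 1053 CPM.

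Of 29 mesenchymal genes 16 (55.2%) lay above both hairpins and 5 (17.2%) below both, against 34.7% and 36.1% of all genes. The medians of the list were 0.26 and 0.25. The 2 called, against 0.175% of all genes, were ANXA1 and TIMP3. THBS1, a matrix protein that activates TGF-beta, was at 122, 97.6 and 189 CPM, and ITGB3 at 3.24, 3.12 and 6.67 CPM. VIM and FN1, the usual markers, did not leave the range of the hairpins, at 538, 382 and 485 CPM and at 172, 134 and 152 CPM. SPARC was lower, at 2.15, 1.56 and 0.481 CPM (edgeR adjusted p = 0.303). Epithelial and mesenchymal lists therefore leaned the same way.

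Feedback genes of the MAPK pathway, the cascade sorafenib was made to block through RAF, were mostly higher. Of 18 measured, 15 (83.3%) lay above both hairpins and 2 (11.1%) below both, against 34.7% and 36.1% of all genes. The medians of the list were 0.26 and 0.44. PHLDA1 had 62.9, 61.6 and 119 CPM (edgeR adjusted p = 0.263). SPRY4, which damps growth factor signalling, had 14.1, 14.2 and 25.2 CPM (edgeR adjusted p = 0.361). DUSP6, a phosphatase of ERK, was at 16.8, 13.9 and 16.5 CPM, inside the range of the hairpins. By edgeR 0 were called, 4 of the 18 had an unadjusted p below 0.05, against 10.0% of all genes, and DESeq2 called 0.

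Clustered and germline gene families gave few measured members. The pregnancy-specific glycoproteins, placental secreted proteins in a cluster on chromosome 19, lay at least 2-fold above each hairpin at all 3 measured. Of all genes 1.57% did. PSG5 had 1.32, 0.628 and 7.66 CPM (edgeR adjusted p = 0.0888), PSG4 had 21.9, 14.8 and 51.9 CPM (edgeR adjusted p = 0.166) and PSG9 had 0.836, 0.655 and 3.21 CPM. The limit of 1 CPM is a mean that includes the SETDB1 library, and PSG9 was under it in both hairpin libraries. That all 3 lay higher is therefore in part built in. These genes are near-identical, and the sum of 10 family members was 24.9, 16.5 and 67.8 CPM (edgeR adjusted p = 0.132). The placental alkaline phosphatases ALPP and ALPG summed to 75.1, 21.1 and 206 CPM, so the hairpins themselves were far apart.

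Clustered protocadherins, neuronal adhesion genes, had 4 measured members of 53 in the table. Of these 4, 3 (75%) lay below both hairpins, against 36.1% of all genes. PCDHGA10 was at 2.24, 1.96 and 0.353 CPM (edgeR adjusted p = 0.19), in a locus whose genes overlap and share exons. The 4 had medians of −0.47 and −1.04, or −0.25 and −1.03 within bands of gene length. The germline and cancer-testis list also held CALB1, described above, which is not a germline gene and was the 1 called of its 12. Of the other 11, a count made after the values were seen, 8 lay above both hairpins and 2 below both. The shares of all genes were 34.7% and 36.1%, and the medians of the 11 were 0.35 and 0.30. By edgeR 0 of these 11 were called, 4 had an unadjusted p below 0.05, against 10.0% of all genes, and DESeq2 called 0. Zinc finger genes, many of which are bound by SETDB1, lay above both hairpins at 144 of 324 (44.4%, against 34.7% of all genes) and below both at 84 (25.9%, against 36.1%). Their median difference was 0.22 from hairpin 1 and −0.005 from hairpin 2. By edgeR 0 were called, 27 of the 324 had an unadjusted p below 0.05, against 10.0% of all genes, and DESeq2 called 1. Medians of this list within bands of gene length were not taken, and the part of gene length was not tested.

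The remaining genes with the widest gaps had varied roles. MYLIP, a ubiquitin ligase, had 3.37, 3.76 and 12 CPM (edgeR adjusted p = 0.141). CSPG4, a membrane proteoglycan, was at 40.5, 47.3 and 138 CPM (edgeR adjusted p = 0.0555). WNT9A, a secreted Wnt ligand, had 4.33, 2.87 and 12.8 CPM (edgeR adjusted p = 0.156). LINC02154 had 1.83, 3.76 and 12.6 CPM. IGFN1 was the reverse, at 11.5, 25.7 and 2.73 CPM (edgeR adjusted p = 0.153).

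Some loci on the lower side overlap other genes. TALAM1, antisense to MALAT1, had 2472, 119 and 0 counts while MALAT1 was at 190, 252 and 307 CPM. PIGY shares its locus with PYURF and was at 33.5, 6.28 and 2.12 CPM, while PYURF was at 56.6, 90.0 and 66.5 CPM. GTF2IP4, a transcribed pseudogene of GTF2I, was at 35.5, 29.1 and 10.1 CPM. Of 22 genes of the IL6 family, chemokines and NF-kB feedback, 9 (40.9%) lay above both hairpins and 6 (27.3%) below both. Of all genes 34.7% and 36.1% did, and the medians of the list were 0.14 and 0.03. By edgeR 0 were called, and 5 of the 22 had an unadjusted p below 0.05, against 10.0% of all genes. DESeq2 called 2, 1 in each direction. IL6 had 66.1, 83.1 and 29.3 CPM (edgeR adjusted p = 0.193), and NFKBIA, the feedback inhibitor of NF-kB, had 75.6, 81.6 and 46.0 CPM. The IL6 receptor gene IL6R lay the other way at 5.52, 8.77 and 22.3 CPM (edgeR adjusted p = 0.188).

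Structural RNAs lay mostly higher in SETDB1 knockdown, with medians of 1.12 and 1.08. The 18 genes measured were ribosomal RNA genes, RN7SL1 and RN7SL2 of the signal recognition particle, and RN7SK, a small nuclear RNA that restrains transcription elongation. Of these 11 (61.1%) lay above both hairpins and 8 (44.4%) were at least 2-fold higher, against 34.7% and 1.57% of all genes. RN7SL2 was the 1 called. The 45S precursor copy RNA45SN5 had 239, 148 and 660 CPM (edgeR adjusted p = 0.137), while RN7SL1 had 5.61, 5.43 and 17.2 CPM (edgeR adjusted p = 0.137). The copies of ribosomal RNA share sequence, and RNA28SN3 lay far the other way at 608, 26.0 and 4.75 CPM. With the structural RNAs left out, 23 genes were called and 198 and 150 genes were at least 2-fold higher and lower.

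Cytosolic ribosomal protein genes lay on different sides of the hairpins. The 78 measured had medians of −0.38 from hairpin 1 and 0.18 from hairpin 2, and 0 were called or had an unadjusted p below 0.05. The same change of sign was seen for 80 nuclear respiratory chain genes, at −0.23 and 0.04. The shortest of the 4 bands of gene length, over all genes, had medians of −0.23 and −0.008. Medians of these 2 lists within bands of gene length were not taken, and the part of gene length was not tested.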

How the data were processed

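Values in the authors' deposited table are estimated counts (expected counts) per gene, whole numbers that were not normalized. Tools listed in the submitters' processing notes, with no role or order, are StringTie 2.2.1, HISAT2 2.2.1 and DESeq2 1.34.0, with the build hg38. The counting procedure is not given in the sources used here. Low values pile up at 4 and 8, so about 4 counts a fragment were assumed, and intervals and floors cover counting error only. Membership used CPM by library total, and printed CPM were scaled by trimmed mean of M values (TMM) factors of 0.991, 1.04 and 0.975. The quasi-likelihood test of edgeR 4.0.16 (R 4.3.3, robust dispersions, minimum count 10) was fitted to 16703 genes in 3 libraries, with Benjamini-Hochberg adjustment, a threshold of 0.05 and 1 residual degree of freedom. The biological coefficient of variation was 0.237. The script was tested on simulated counts. The rule of size used log2 CPM with a prior count of 2.

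Named genes were the 2 targets, all called genes, the 12 highest and 12 lowest by the smaller difference from the hairpins (mean of at least 5 CPM, at least 2-fold, no read-through loci, structural RNAs or copies), and up to 4 members of each list whose medians were at least 0.2 in size with 1 sign. Others were named for their role after their values were seen, and a few genes are not reported here. The members and the 42 gene lists were chosen with earlier results of these data known. Positions and promoters are from RefSeq (GRCh38.p14), in which 12854 of the 13131 genes were found. Alternatives were DESeq2 1.42.0, limma-voom (3.58.1), other scaling, filters and prior counts, and leaving out each hairpin.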

Additional observations from a re-analysis of the deposited data

How the results depend on the processing

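The number of genes called stayed within 1.5 times of 23 with DESeq2 size factors in edgeR (24), with Control added to the fit (26) and without the structural RNAs (23). It was 182 with the DESeq2 test (111 higher, 71 lower), 67 with counts divided by 4 (52 and 15) and 48 with a mean of at least 5 CPM (36 and 12). With copies summed and read-through loci left out, chosen after the values were seen, it was 13, of which 3 were lower, and SETDB1 was at −2.04 (adjusted p = 0.0586). It was 0 in each direction by limma-voom and 0 without the filter on low counts; the cause was not tested. ATF7IP kept its direction in these fits, with log2 fold changes of 2.40 by limma-voom (adjusted p = 0.0552) and 2.40 without the filter (adjusted p = 0.0671) and an adjusted p from 3.02e-13 to 0.0671 over all alternatives with a test. SETDB1 had −2.04 by limma-voom (adjusted p = 0.13) and −2.04 without the filter (adjusted p = 0.177), with 2.13e-08 to 0.177 over the same alternatives. Of the 80 named genes 0 changed sign under any alternative with a test. Apart from the 2 targets, they were picked for lying on 1 side of both hairpins. The alternatives use the same 3 libraries, so this count was largely built in. The count of 356 genes at least 2-fold from each hairpin was 162 at a mean of at least 5 CPM (94 higher, 68 lower), 1295 at 1.5-fold (699 and 596) and 85 at 3-fold (44 and 41). Without 1 hairpin it ran from 728 to 781, with 439 to 450 higher and 289 to 331 lower, since fewer conditions applied. No test was possible without 1 hairpin, which leaves no residual degrees of freedom. The medians of the 14 described lists kept their sign under every alternative. These lists were described because their medians had 1 sign against both hairpins, so for leaving out a hairpin this was built in. No paired analysis was possible because SETDB1 knockdown has 1 library. A total of 12 counts, or 0.163 to 0.168 CPM, limits what was detectable.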
